A study of Caenorhabditis remanei with 48 samples.

Results

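The genes described here were those whose level in first-stage larvae of the nematode *Caenorhabditis remanei* shifted with the temperature of the parents in a heat-selected and a control-selected population, but little in the ancestor of both. They numbered 62 of the 24723 gene models counted: 55 were higher and 7 were lower when the parents had lived at 30 °C. Members were chosen on log2(CPM + 1), where CPM is the count of a gene relative to its library's TMM-scaled total (trimmed mean of M values). The parental effect of a gene was its mean with parents at 30 °C minus its mean with parents at 20 °C, in replicates 1 and 2, averaged over both larval temperatures. A member had an effect of at least 0.8 with the same sign in both selected populations, and an effect under 0.5 in size in the ancestor.

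The ancestor was strain PX443, and the control-selected and heat-selected populations both derive from it. Each population gave 4 groups: parents at 30 °C with larvae at 30 °C or at 20 °C (n = 2 libraries each), and parents at 20 °C with larvae at 30 °C or at 20 °C (n = 6 libraries each). All stocks were kept on plates with *Escherichia coli* OP50 at 20 °C, and bleached embryos spent 20 h in buffer without food at the larval temperature. Each library is polyadenylated RNA of about 100000 pooled larvae that had passed a 20-micron filter, so all larvae were unfed. The labels name a single population per selection regime, give no account of the selection itself, and do not say whether replicates came from separate cultures; p-values therefore measure the spread between these libraries, which may be technical.

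In nematodes, as in other animals, what a parent experiences can reach its offspring through the egg: through maternal transcripts, proteins and yolk loaded into the oocyte, and, in *C. elegans*, through small RNAs and chromatin marks carried by the germ line. Heat itself switches genes in larvae through the heat shock factor and through slower changes in growth, metabolism and cuticle formation. A gene can therefore respond to the larva's own temperature, to that of its parents, or to both, and the crossed temperatures of these groups measure both. The files pair the gene identifiers with no gene names, so the members appear by identifier and nothing is said of what their products do; the stage of the larvae could not be checked against marker genes either.

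Each library held 1986767 to 12717722 counts in genes (median 4652860), with TMM factors from 0.70 to 1.53. All libraries with heated parents share a labelled batch with replicates 1 and 2 of their own population: batch A for the ancestor, C for the control-selected and E for the heat-selected population. Replicates 3 to 6 are in batches B, D and F, except that replicates 5 and 6 of ancestor larvae at 30 °C are in batch A. Reads outside genes made up over 35% of 2 libraries with heated parents, replicate 1 of ancestor larvae at 30 °C (41.1%) and replicate 2 of heat-selected larvae at 20 °C (47.1%). Without these 2 libraries the rule gives 66 genes, 53 of them among the 62. No replicates agreed within sampling noise: the chi-square per degree of freedom between libraries of a group was at least 2.7 over genes with a summed count of 20 or more.

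The members higher with heated parents had a median parental effect of 1.10 in heat-selected larvae (range 0.82 to 3.00, n = 55 genes), 1.01 in control-selected larvae (0.81 to 2.21) and −0.01 in ancestor larvae (−0.45 to 0.48). For the 7 members that were lower the medians were −1.49 in heat-selected larvae, −0.92 in control-selected larvae and 0.11 in ancestor larvae. All of these values were used to choose the members, so they are a description and carry no test. Over all gene models the median was 0 in each population. In RNA of whole pooled larvae, fewer cells of a type and less RNA per cell cannot be told apart.

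**Figure D1:**
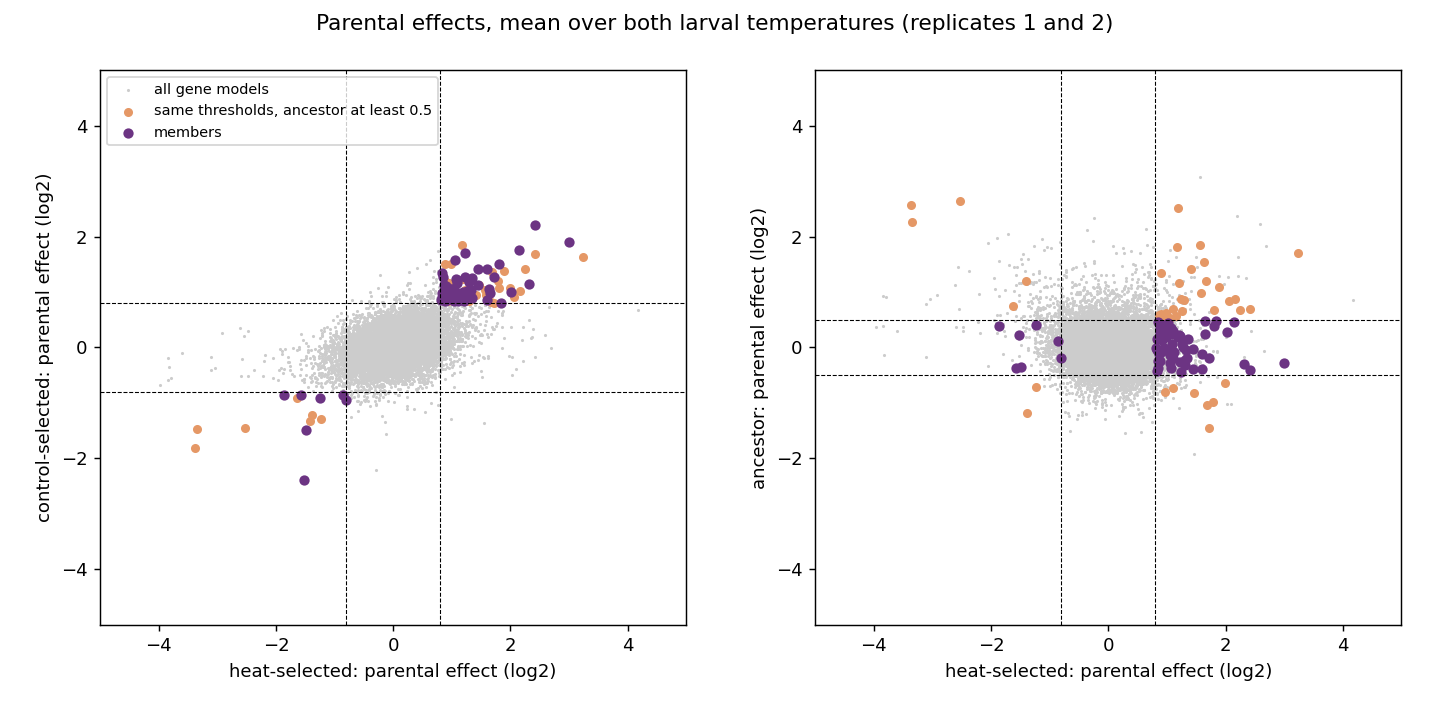
Parental effect of each gene model on the log2(CPM + 1) scale, heat-selected (horizontal axes) against control-selected (left, vertical axis) and against ancestor (right, vertical axis). Purple points are the 62 members, orange points the 41 genes that met the same thresholds in both selected populations but had an ancestor effect of at least 0.5, and grey points all gene models. Dashed lines mark 0.8 and 0.5.

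An effect of at least 0.8 was reached by 1198 genes in heat-selected, 250 in control-selected and 523 in ancestor larvae, and 105 genes reached it in both selected populations. Of those 105, 103 had the same sign and 2 the opposite sign in the selected populations. The 62 members are the genes among the 103 with an ancestor effect under 0.5. The other 41 had a larger ancestor effect, in 29 with the sign of the selected populations and in 12 with the opposite sign. Closest to the threshold of 0.8 on the inner side lay CRE16173, at −0.81 in heat-selected larvae and −0.94 in control-selected ones, and CRE_PX356_883, at 1.84 in heat-selected larvae and 0.81 in control-selected ones, followed by CRE_PX356_2413, at 0.82 and 0.85 in these populations. Just outside lay CRE03772 (0.94 in heat-selected larvae and 0.80 in control-selected ones, rounded up from below the threshold), CRE27499 (0.80 in heat-selected larvae, likewise rounded up, and 0.82 in control-selected ones) and CRE18925 (1.02 in heat-selected larvae and 0.80 in control-selected ones, likewise rounded up). Closest to the ancestor limit were CRE29896 (0.48), CRE_PX356_883 (0.47) and CRE21032 (0.46) inside and CRE11282 (0.53), CRE15753 (0.53) and CRE09307 (0.57) outside. Both limits therefore cut through a continuous range of values.

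CRE09194 (scaffold 89) had the largest smaller-of-both parental effect: 2.41 in heat-selected, 2.21 in control-selected and −0.40 in ancestor larvae. Heat-selected larvae at 30 °C had 185 and 42.1 CPM with parents at 30 °C, against 34.5 and 14.3 CPM with parents at 20 °C in replicates 1 and 2. At 20 °C heat-selected larvae had 214 and 83.9 CPM with heated parents, against 14.5 and 20.5 CPM with unheated parents. These groups did not overlap at either larval temperature, although the 2 libraries of heated parents differed widely from each other. Replicates 3 to 6 with unheated parents had 23.8, 16.7, 46.9 and 46.2 CPM at 30 °C, of which the last pair lay above the lower heated library. Control-selected larvae at 30 °C had 201 and 79.5 CPM with heated parents, against 24.8 and 28.3 CPM with unheated parents, and at 20 °C 136 and 60.5 CPM against 24.8 and 14.3 CPM. Replicates 3 and 4 of unheated control-selected larvae at 30 °C, at 101 and 87.3 CPM, lay above the lower heated library. In the ancestor the order differed with larval temperature. At 30 °C the libraries of heated parents had 27.4 and 91.4 CPM, against 121 and 119 CPM with unheated parents, whereas at 20 °C they had 265 and 198 CPM, against 165 and 174 CPM. The gene's ancestor effect under 0.5 is thus a mean of −1.24 at 30 °C and 0.43 at 20 °C.

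CRE07335 (linkage group 1) had the next largest, 3.00 in heat-selected, 1.91 in control-selected and −0.28 in ancestor larvae, at a low level. Heat-selected larvae at 30 °C had 20.8 and 3.53 CPM with heated parents, against 0 and 0.608 CPM with unheated parents. Control-selected larvae at 30 °C had 23.1 and 16.2 CPM with heated parents, against 1.05 and 5.43 CPM with unheated parents. Ancestor larvae at 30 °C had 1.26 and 2.25 CPM with heated parents, against 2.48 and 1.40 CPM with unheated parents. At 30 °C the ancestor's heated and unheated groups overlapped, and those of the selected populations did not. At 20 °C ancestor larvae had 2.65 and 4.25 CPM with heated parents, below the 4.83 and 5.33 CPM with unheated parents. In replicates 3 to 6 of heat-selected larvae with unheated parents, which the rule did not use, the gene had 3.62 to 5.65 CPM at 30 °C, so it was not near 0 in all unheated heat-selected libraries and the lower of the heated libraries (3.53 CPM) fell below that range.

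Among the members lower with heated parents, CRE27096 (scaffold 84) had an effect of −1.53 in heat-selected, −2.40 in control-selected and 0.23 in ancestor larvae. Heat-selected larvae at 30 °C had 15.9 and 8.13 CPM with heated parents, against 43.9 and 38 CPM with unheated parents in replicates 1 and 2 and 240, 176, 119 and 112 CPM in replicates 3 to 6. Control-selected larvae at 20 °C had 9.40 and 4.32 CPM with heated parents, against 81.6 and 31.7 CPM with unheated parents in replicates 1 and 2 and 54.1, 88.3, 57.9 and 75.2 CPM in replicates 3 to 6. Every library of heated parents in the selected populations was below all 6 libraries of unheated parents at the same larval temperature. Ancestor larvae at 30 °C had 35 and 27.7 CPM with heated parents, against 18.5 and 17.1 CPM with unheated parents in replicates 1 and 2 and 358.5, 218, 77.9 and 69.1 CPM in replicates 3 to 6. At 30 °C the ancestor's libraries of heated parents thus lay above replicates 1 and 2 and below replicates 3 to 6. The sign of its parental effect at 30 °C therefore depends on which unheated libraries are taken. At 20 °C ancestor larvae had 8.72 and 7.81 CPM with heated parents, below all 6 unheated libraries, of which the lowest had 9.28 CPM.

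CRE01572 (scaffold 32) behaved alike in the selected populations, with effects of −1.49 in heat-selected, −1.48 in control-selected and −0.34 in ancestor larvae. Its level with heated parents was 1.49 and 2.47 CPM in heat-selected larvae at 30 °C, against 9.39 and 11 CPM with unheated parents. In control-selected larvae at 30 °C it was 1.17 and 1.34 CPM with heated parents, against 8.95 and 7.92 CPM with unheated parents. Ancestor larvae at 30 °C had 5.66 and 5.52 CPM with heated parents, against 8.36 and 7.68 CPM with unheated parents. The ancestor's groups were also separated, in the same direction and by less.

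**Figure D2:**
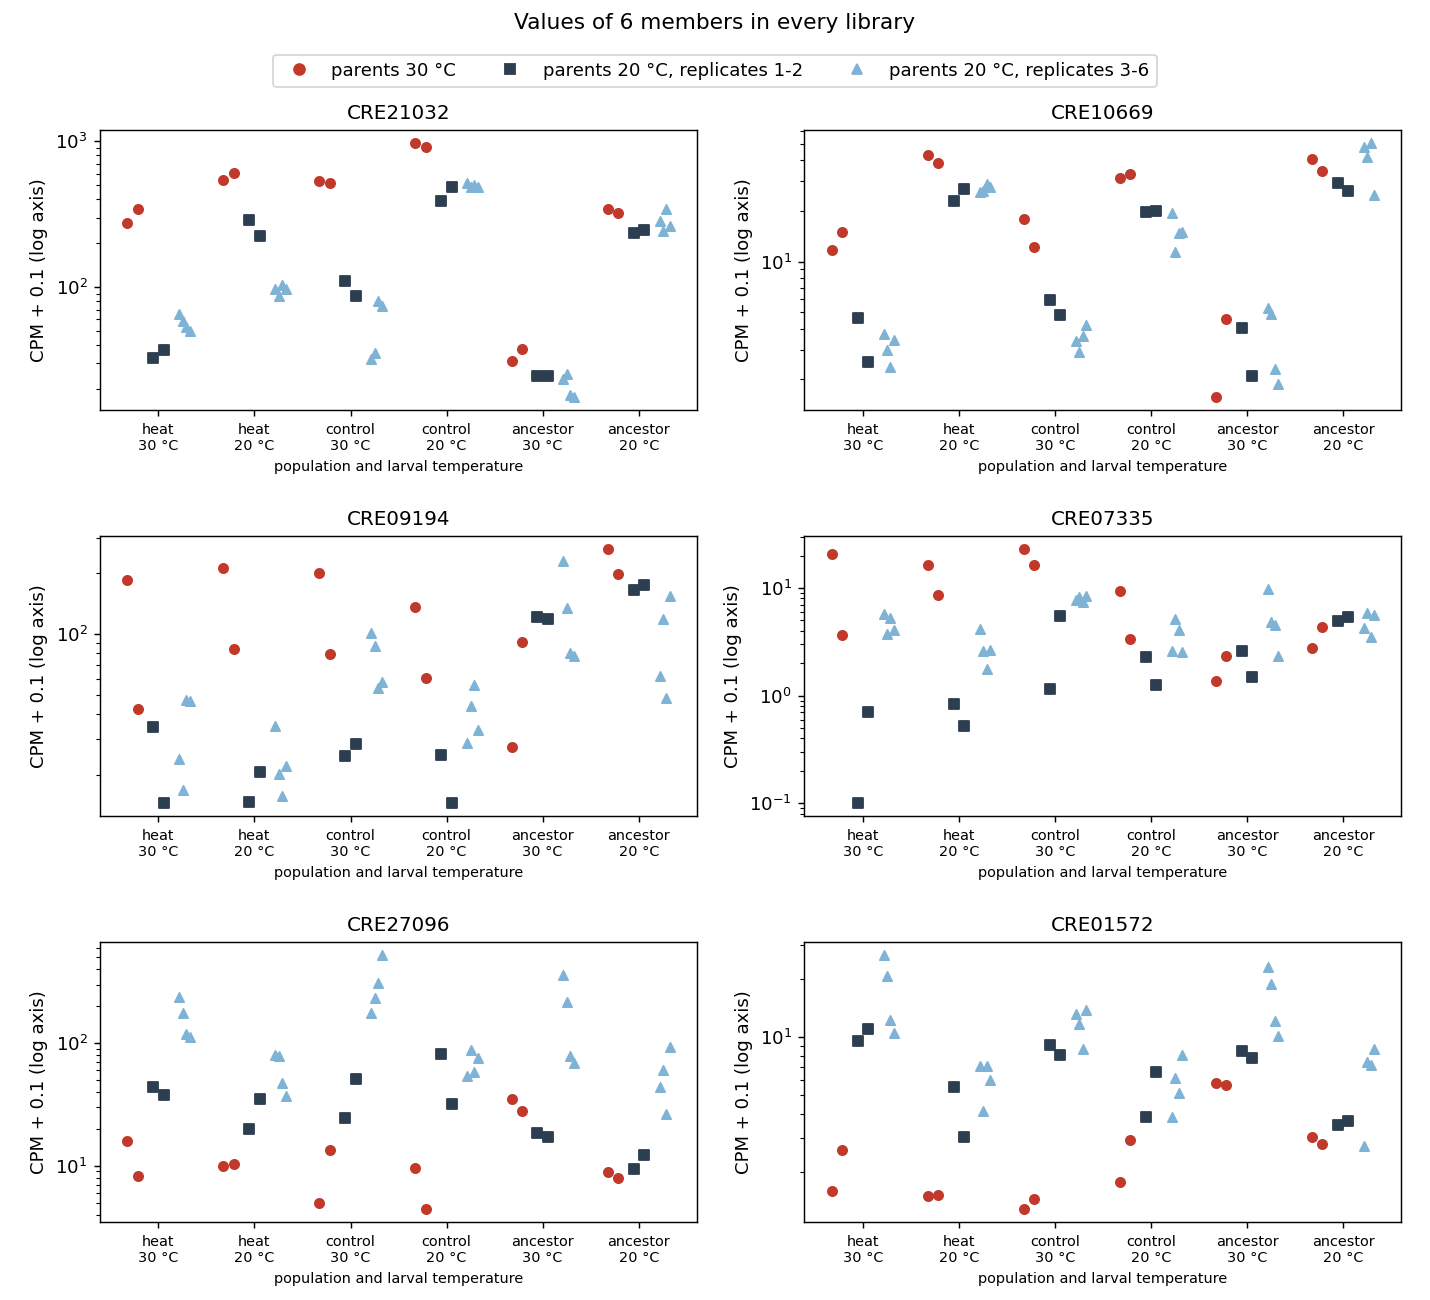
CPM plus 0.1 (log axis) of 6 members in each of the 48 libraries, by population and larval temperature. Red circles are parents at 30 °C, dark squares parents at 20 °C in replicates 1 and 2, and blue triangles parents at 20 °C in replicates 3 to 6. Compared at the same larval temperature, CRE21032 with heated parents stands above all unheated libraries in both selected populations, and CRE27096 and CRE01572 stand below them. The ancestor shows the same separation for CRE21032 and CRE01572 at 30 °C and for CRE27096 at 20 °C.

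The values used by the rule are means over larval temperatures, and the direction of the single effects is therefore largely fixed by the choice of members. Both populations had the same sign at 30 °C and at 20 °C in 59 of the 62 members, and all 4 effects reached 0.8 in 17 of them. For the 55 higher members the median effect in heat-selected larvae was 1.19 at 30 °C and 1.16 at 20 °C. In control-selected larvae it was 1.24 at 30 °C and 0.95 at 20 °C. The size of the effect was larger at 30 °C than at 20 °C in 34 of 62 members in the heat-selected and in 41 of 62 in the control-selected population. It was larger in the heat-selected population than in the control-selected one in 40 of 62. CRE21032 (linkage group 4), at 3.12 in heat-selected larvae at 30 °C against 1.16 at 20 °C, and at 2.41 in control-selected larvae at 30 °C against 1.12 at 20 °C, shows the more common order. CRE16387 (linkage group 4) had the opposite one, at 1.41 in heat-selected larvae at 30 °C against 2.21 at 20 °C, and at 0.69 in control-selected larvae at 30 °C against 2.33 at 20 °C.

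An ancestor effect under 0.5 did not mean that ancestor larvae were alike at each temperature. In 31 of the 62 members the ancestor's effect was under 0.5 in size at both larval temperatures. In 16 members it reached 0.8 at one or the other temperature, and in 14 of these 16 it had opposite signs at 30 °C and 20 °C, so that the mean was small. Signs were opposite in 38 of 62 members, and in 26 of these 38 the ancestor's level with heated parents was lower at 30 °C and higher at 20 °C. The ancestor's mean effect had the sign of the selected populations in 28 members and the opposite sign in 34.

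**Figure D3:**
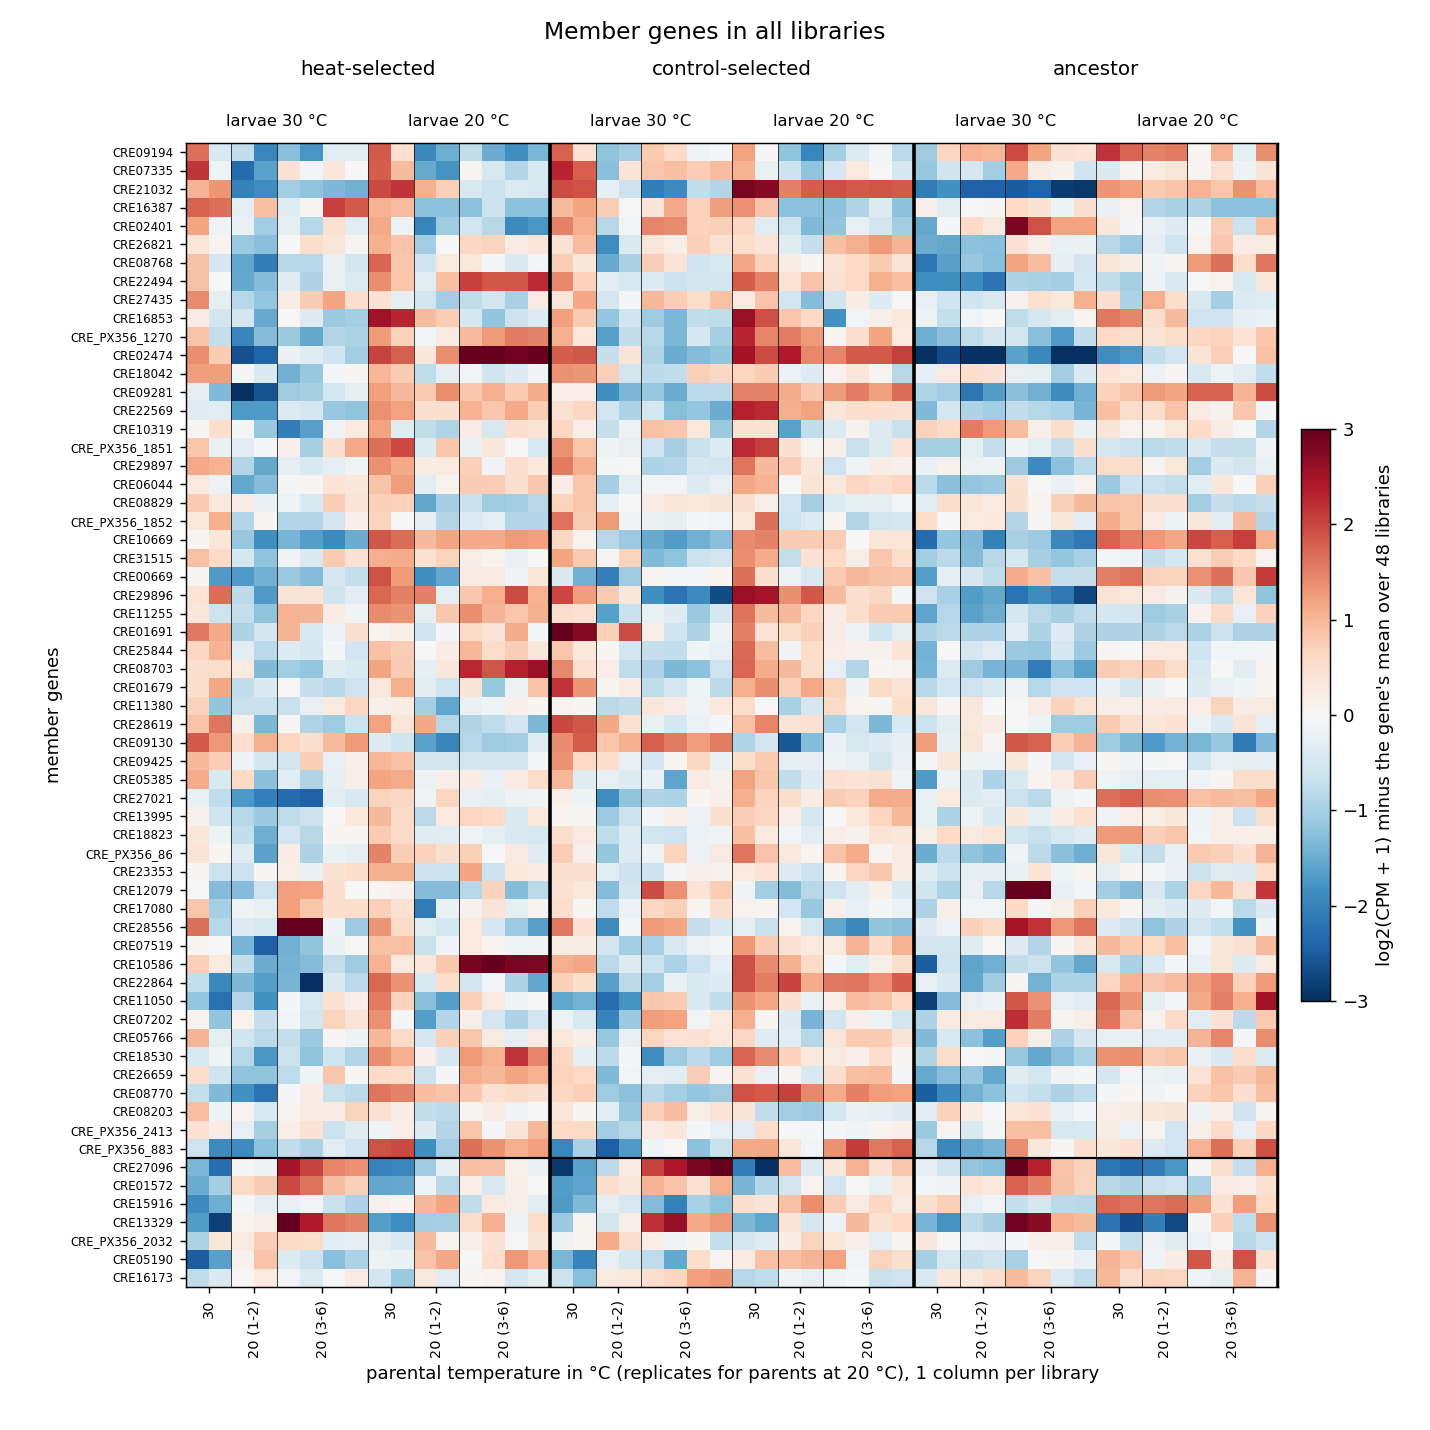
Level of each of the 62 members in the 48 libraries as log2(CPM + 1) minus the gene's mean over all libraries (colour, limited to 3 on either side). Columns are libraries by population, larval temperature and parental temperature, with replicates 1-2 and 3-6 of unheated parents apart; rows above the line are the 55 higher members and rows below it the 7 lower ones, in order of the smaller of both parental effects.

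Separation of single libraries was counted against replicates 1 and 2, which the rule used, and then against all 6 libraries of unheated parents. Against replicates 1 and 2, both libraries of heated parents lay on the members' side of both unheated libraries in 48 of 62 members in heat-selected larvae at 30 °C, where 43.6% of all tested genes did not overlap in one direction or the other. The counts were 56 in heat-selected larvae at 20 °C (37.2% of tested genes), 56 in control-selected larvae at 30 °C (39.4%) and 50 in control-selected larvae at 20 °C (39.6%). In the ancestor they were 10 at 30 °C (56.6% of tested genes) and 30 at 20 °C (58%). Since the rule used these libraries, nothing is read from the counts.

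Against all 6 unheated libraries the heated ones were separate on the members' side in 25 members in heat-selected larvae at 30 °C and 35 at 20 °C. Of all tested genes 15.3% and 10.1% were separate there, in one direction or the other. Control-selected larvae gave 32 at 30 °C (9.25%) and 30 at 20 °C (17.9%), and ancestor larvae 5 at 30 °C (21.6%) and 13 at 20 °C (18.8%). The percentages count either direction, but members separate on the opposite side are not in the member counts. An example in ancestor larvae at 30 °C is CRE08768, at 54.1 and 79.4 CPM with heated parents, against 100.5 CPM or more with unheated parents. In all 4 selected groups at once, 8 members were separate from all unheated libraries, beside 36 of the 13460 tested genes (0.267%). The heated libraries and replicates 1 and 2 also chose the members, so nothing is read from these counts against all genes either. These 8, found after their values were seen, are CRE21032, CRE18042, CRE22569, CRE29897 and CRE10669 among the higher members and CRE27096, CRE01572 and CRE16173 among the lower ones. For CRE21032 the ancestor's heated libraries at 30 °C (31 and 37.7 CPM) also lay above all 6 unheated ones (at most 25.1 CPM). The ancestor's effect in this gene was 0.46 at each larval temperature. In CRE10669 (scaffold 1893) heat-selected larvae at 30 °C had 11.7 and 14.8 CPM with heated parents, against 4.54, 2.43, 3.63, 2.90, 2.26 and 3.33 CPM in replicates 1 to 6 with unheated parents. Ancestor larvae at 30 °C had 1.47 and 4.49 CPM with heated parents, against 3.92, 1.99, 5.23, 4.77, 2.21 and 1.79 CPM with unheated parents, so the ancestor's groups overlapped.

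The level of the members in unheated libraries differed between replicates 1 and 2 and replicates 3 to 6. The rule chose the higher members for low values, and the lower members for high values, in replicates 1 and 2 of the selected populations. A shift of replicates 3 to 6 the other way is therefore not an independent result. How much of the shift goes with this choice and how much with batch was not tested. In replicates 3 to 6 the higher members stood above replicates 1 and 2 of the same group by a median of 0.65 in heat-selected larvae at 30 °C and 0.47 at 20 °C, by 0.48 and 0.33 in control-selected larvae at 30 and 20 °C, and by 0.36 and 0.08 in ancestor larvae at 30 and 20 °C. For the 7 lower members the medians were −0.22 and −0.17 in heat-selected, 0.41 and −0.18 in control-selected, and 0.37 and 0.63 in ancestor larvae at 30 and 20 °C. The medians over all tested genes lay between −0.14 and 0.00. With replicates 3 to 6 in place of replicates 1 and 2 as unheated libraries, 46 of 62 members kept their sign in both selected populations and 17 still reached 0.8 in both. The median effect of the higher members was then 0.68 in heat-selected larvae and 0.69 in control-selected ones. The rule would then choose 189 genes, of which 9 are among the 62. Heated libraries and replicates 3 to 6 are in different labelled batches, so parental temperature and batch cannot be told apart in that comparison.

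Technical measures varied across the same libraries. Reads not aligned made up 13.1 to 16.9% with heated parents in the heat-selected population, against 16.3 to 17.4% in replicates 1 and 2 and 21.9 to 32.6% in replicates 3 to 6 with unheated parents. In the control-selected population they made up 13.1 to 31.4% with heated parents, against 15.0 to 21.0% in replicates 1 and 2 and 19.4 to 36.9% in replicates 3 to 6. TMM factors were 1.01 to 1.42 with heated parents in the heat-selected population, against 1.03 to 1.39 in replicates 1 and 2 and 0.77 to 1.00 in replicates 3 to 6. Heated libraries and replicates 1 and 2 thus overlapped in both measures, and in the heat-selected population replicates 3 to 6 did not overlap with either. The part of these measures in the parental effect was not tested.

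**Figure D4:**
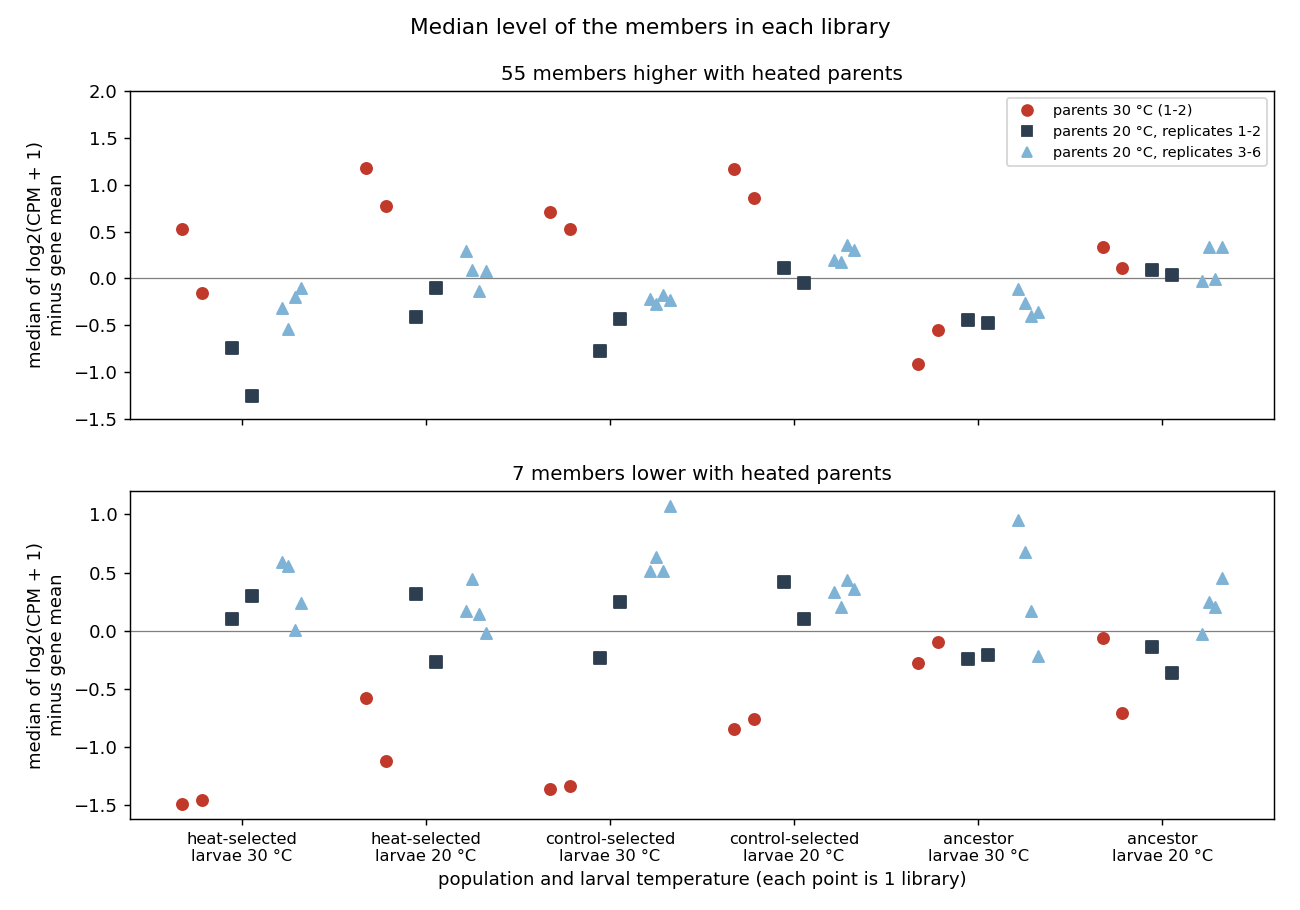
Median over the 55 higher members (top) and the 7 lower members (bottom) of log2(CPM + 1) minus the gene's mean, in each library. Red circles are parents at 30 °C, dark squares replicates 1 and 2 and blue triangles replicates 3 to 6 of parents at 20 °C. At each larval temperature of both selected populations the heated libraries lie above the squares in the top panel and below them in the bottom panel, and most triangles of both populations lie above the squares in the top panel.

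Whether the members also respond to the larva's own temperature was tested in replicates 3 to 6 with unheated parents, which the rule did not use. One edgeR quasi-likelihood fit of all 48 libraries was adjusted by Benjamini-Hochberg over the 13460 genes that passed a minimum count of 10, and genes with an adjusted p under 0.05 were called. Of the 62 members 61 passed that filter; CRE09425 did not. Larvae at 30 °C differed from larvae at 20 °C in 27 of 61 members in the heat-selected population (8 higher and 19 lower; 17.7% of all tested genes were called, 9.49% higher and 8.21% lower), in 38 in the control-selected population (14 higher and 24 lower; 24.8% of all tested genes, 13.2% higher and 11.6% lower) and in 33 in the ancestor (10 higher and 23 lower; 23.3% of all tested genes, 12.3% higher and 11% lower). The median log2 fold change of the members was −0.50 in heat-selected, −0.59 in control-selected and −0.33 in ancestor larvae, beside 0.03, 0.01 and −0.04 over all tested genes in the same order of populations. Libraries 3 and 4, and 5 and 6, of a group were often nearer to each other than to the other pair, and the labels do not say whether such libraries share a culture. With these pairs summed, the called members numbered 17 in the heat-selected population (2.64% of all genes tested in that fit), 23 in the control-selected population (7.86%) and 20 in the ancestor (7.34%). Without ancestor replicate 4 at 30 °C the ancestor's count was 20 (12.2% of all genes tested then).

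Both kinds of members contributed to these counts in different directions. Of the 54 tested members that were higher with heated parents, larval heat lowered 18 and raised 5 in the heat-selected population (median −0.56), lowered 23 and raised 10 in the control-selected population (median −0.62), and lowered 21 and raised 7 in the ancestor (median −0.49). Of the 7 that were lower with heated parents, larval heat raised 3 and lowered 1 in the heat-selected, raised 4 and lowered 1 in the control-selected, and raised 3 and lowered 2 in the ancestor population. No member was called with opposite signs in different populations, and 23 of the 13460 tested genes were. In all 3 populations 12 members were called lower, beside 3.71% of tested genes, and all 12 were among the higher members, which make up 54 of the 61 tested. In all 3 populations 7 members were called higher, beside 4.21% of tested genes: CRE08829, CRE09130, CRE16387 and CRE28556 among the higher members and CRE01572, CRE13329 and CRE27096 among the lower ones. None of the 3 tests called 17 of the 61 members, beside 60.6% of tested genes.

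**Figure D5:**
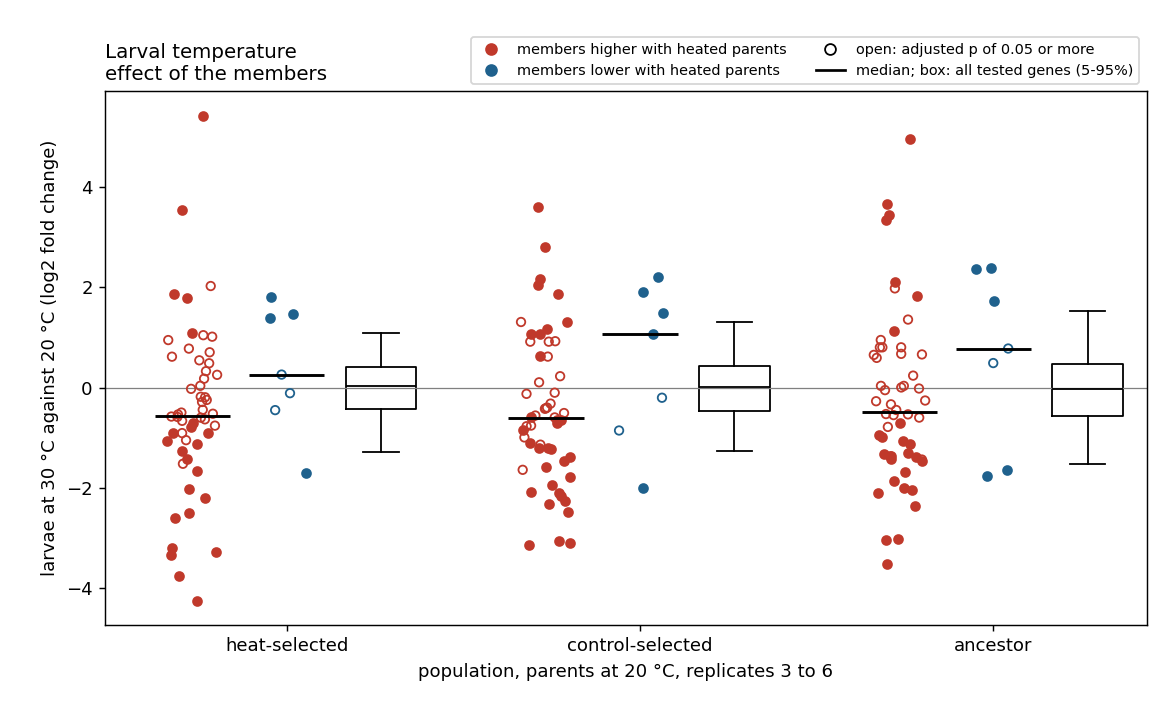
Log2 fold change of larvae at 30 °C against larvae at 20 °C with unheated parents in replicates 3 to 6 (ancestor at 30 °C: replicates 3 and 4), by population. Red points are the 54 tested members higher with heated parents, blue points the 7 lower ones, filled where the adjusted p of edgeR was under 0.05; thick bars are medians, and boxes show quartiles and the 5th to 95th percentile of all 13460 tested genes. Most called red points lie below 0 in each population.

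The strongest larval decrease in the ancestor and in the control-selected population was that of CRE21032. Heat-selected larvae had 65.0, 58.7, 52.8 and 49.8 CPM at 30 °C, against 96.7, 86.3, 103 and 97.4 CPM at 20 °C in replicates 3 to 6. Control-selected larvae had 31.8, 35.4, 80.7 and 74.1 CPM at 30 °C, against 519, 490, 503 and 487 CPM at 20 °C. Ancestor larvae had 23.4 and 25.1 CPM at 30 °C (replicates 3 and 4), against 283, 241, 345 and 261 CPM at 20 °C. No groups overlapped, and the distance was shortest in the heat-selected population, where the level at 20 °C was lower than in the other two. By edgeR the log2 fold change was −0.79 ± 0.19 in heat-selected (SE; adjusted p = 0.0027), −3.14 ± 0.20 in control-selected (adjusted p = 8.3e-15) and −3.52 ± 0.27 in ancestor larvae (adjusted p = 1.5e-12). The larval response differed between heat-selected and ancestor larvae by 2.73 ± 0.31 (edgeR adjusted p = 1.3e-07) and, set against control-selected larvae, by 2.35 ± 0.26 (edgeR adjusted p = 1.6e-07). In replicates 1 and 2 heat-selected larvae with unheated parents had 288 and 225 CPM at 20 °C, above all of replicates 3 to 6, and 32.4 and 36.8 CPM at 30 °C, below all of them. The larval decrease of heat-selected larvae in replicates 1 and 2 was thus larger than in replicates 3 to 6. The means of replicates 1 and 2 were 34.6 CPM at 30 °C against 256 CPM at 20 °C in heat-selected, 98.6 against 437 CPM in control-selected and 24.5 against 240 CPM in ancestor larvae. In proportion, the decrease of heat-selected larvae lay between those of the other populations in these replicates, with no test.

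CRE02474 (scaffold 93) fell with larval heat in all 3 populations. Heat-selected larvae had 37.1, 33.0, 28.0 and 20.2 CPM at 30 °C, against 446, 404, 321 and 379 CPM at 20 °C. In ancestor larvae the level was 13.3 and 10.4 CPM at 30 °C, against 56.9, 70.2, 42.4 and 79.1 CPM at 20 °C. Its log2 fold change by edgeR was −3.76 ± 0.26 in heat-selected (adjusted p = 1.1e-13), −3.07 ± 0.26 in control-selected (adjusted p = 1.0e-11) and −2.36 ± 0.33 in ancestor larvae (adjusted p = 1.4e-06). The same gene had 115 and 72.8 CPM in heat-selected larvae at 30 °C with heated parents, above the 6.06 to 37.1 CPM of the 6 libraries with unheated parents at 30 °C. At 20 °C heat-selected larvae had 177 and 149 CPM with heated parents. This was above replicates 1 and 2 with unheated parents (54.2 and 113 CPM) but below all of replicates 3 to 6.

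CRE10586 (linkage group 5) was called in the heat-selected population and not in the other populations. Heat-selected larvae had 3.23, 3.62, 5.87 and 4.37 CPM at 30 °C, against 81.6, 90.8, 79.8 and 77.5 CPM at 20 °C, a log2 fold change of −4.25 ± 0.30 (edgeR adjusted p = 2.1e-13). It was −0.76 ± 0.30 in control-selected (adjusted p = 0.055) and −0.78 ± 0.36 in ancestor larvae (adjusted p = 0.11). The response differed by −3.46 ± 0.46 between heat-selected and ancestor larvae (edgeR adjusted p = 4.9e-06) and by −3.49 ± 0.42 between heat-selected and control-selected larvae (edgeR adjusted p = 8.1e-07). Here too replicates 1 and 2 differed, with 5.75 and 3.04 CPM at 30 °C, against 13.5 and 18.9 CPM at 20 °C, in heat-selected larvae, and 5.53 and 7.7 CPM against 22.9 and 16.2 CPM in control-selected larvae.

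CRE09281 (scaffold 252) and CRE29896 (linkage group 4) fell in all 3 populations as well. For CRE09281 the level in ancestor larvae was 30.4 and 26.6 CPM at 30 °C, against 253, 255, 150 and 288 CPM at 20 °C (log2 fold change −3.03 ± 0.31, edgeR adjusted p = 2.4e-09). CRE29896 had 2.97, 2.05, 2.76 and 1.2 CPM in control-selected larvae at 30 °C, against 26.1, 18.7, 20.7 and 12.6 CPM at 20 °C (log2 fold change −3.10 ± 0.42, edgeR adjusted p = 7.4e-07). In neither case did the groups overlap.

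The strongest larval increases among the members were those of CRE16387, CRE09130 and CRE28556, all of which were also higher with heated parents. CRE09130 (scaffold 1379) had 36.9 and 34.7 CPM in ancestor larvae at 30 °C, against 3.06, 3.75, 1.41 and 3.21 CPM at 20 °C. Its log2 fold change by edgeR was 1.87 ± 0.32 in heat-selected (adjusted p = 5.2e-05), 2.05 ± 0.29 in control-selected (adjusted p = 9.8e-07) and 3.66 ± 0.34 in ancestor larvae (adjusted p = 3.7e-10). CRE16387 (linkage group 4) was near 0 at 20 °C in replicates 3 to 6, with 1 count in 4 heat-selected libraries, 4 counts in 4 control-selected libraries and 1 count in 4 ancestor libraries. At 30 °C it had 79 counts in 4 heat-selected, 53 in 4 control-selected and 25 in 2 ancestor libraries. The heat-selected counts were uneven, at 2 and 4 in replicates 3 and 4 and 38 and 35 in replicates 5 and 6. The heat-selected ratio below thus rests mainly on replicates 5 and 6. Scaled for library size, the ratio of 30 °C over 20 °C was 61.5 in heat-selected (95% exact interval for counting error only, 10.7 to 2460), 12.9 in control-selected (4.77 to 49.2) and 44.5 in ancestor larvae (7.28 to 1830). With heated parents the gene was detected at 20 °C as well, at 3.83 and 3.40 CPM in heat-selected, 4.98 and 3.24 CPM in control-selected, and 0.980 and 1.51 CPM in ancestor larvae.

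CRE28556 (scaffold 17) varied within its groups. Heat-selected larvae at 30 °C had 65.4 and 66.3 CPM in replicates 3 and 4 but 4.06 and 1.67 CPM in replicates 5 and 6, against 5.88, 3.01, 1.67 and 0.843 CPM at 20 °C, so the groups overlapped. The log2 fold change was 3.54 ± 0.76 by edgeR (adjusted p = 0.00094), and 3.52 with pairs summed, where the adjusted p of edgeR was 0.091; limma-voom gave 2.05 (adjusted p = 0.16). In control-selected larvae it was 2.80 ± 0.90 (edgeR adjusted p = 0.02), and 2.85 with pairs summed (edgeR adjusted p = 0.16). Leaving out replicate 3 or 4 of control-selected larvae at 30 °C, or replicate 4 at 20 °C, also ended this call (edgeR adjusted p = 0.07, 0.068 and 0.061), as did limma-voom (2.42, adjusted p = 0.14).

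The larval temperature difference of the 55 higher members was also present in the libraries that the rule used, where it does not enter the rule. With heated parents its median was −0.67 in heat-selected, −0.39 in control-selected and −0.81 in ancestor larvae, and with unheated parents in replicates 1 and 2 −0.65, −0.67 and −0.52 in the same order of populations. Medians of all tested genes were between −0.08 and 0.02 in these libraries. The members were lower at 30 °C than at 20 °C in 43, 33 and 49 of 55 with heated parents in heat-selected, control-selected and ancestor larvae. With unheated parents in replicates 1 and 2 the numbers were 36, 36 and 45 in the same order. The share of all tested genes lower at 30 °C was not counted, so nothing is read from these numbers against all genes. In the ancestor CRE21032 had 31 and 37.7 CPM at 30 °C, against 341 and 321 CPM at 20 °C, with heated parents.

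The populations were compared in replicates 3 to 6 with unheated parents, averaged over larval temperature. By edgeR 20 of 61 members differed between heat-selected and ancestor larvae (10 higher and 10 lower in heat-selected; 4.99% of all tested genes, 1.92% higher and 3.07% lower), 10 between control-selected and ancestor larvae (3 higher and 7 lower in control-selected; 2.89%, 0.929% higher and 1.96% lower) and 11 when heat-selected were set against control-selected larvae (7 higher and 4 lower in heat-selected; 3.7%, 2.19% higher and 1.51% lower). Every called member was among those higher with heated parents, as were 54 of the 61 tested members. Each population has its own batches, so population and batch cannot be told apart. With pairs of libraries summed, the count for control-selected against ancestor larvae was 1 (0.309% of all genes tested in that fit) and that for heat-selected against control-selected larvae 6 (0.461%); with ancestor replicates 5 and 6 at 30 °C kept, control-selected against ancestor larvae gave 3 (1.09%), and without ancestor replicate 3 at 30 °C it gave 6 (1.86%). Scaling by total counts turned the split between heat-selected and control-selected larvae to 6 higher and 7 lower. The share of all tested genes under that scaling is not given, so this split is not read against all genes.

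The largest decreases relative to the ancestor were those of CRE12079 and CRE09194. CRE12079 (linkage group 2) had 4.84, 4.71, 2.48 and 1.46 CPM in heat-selected and 8.61, 5.39, 2.26 and 3.13 CPM in control-selected larvae at 30 °C, against 45.7 and 49.4 CPM in ancestor replicates 3 and 4. The log2 difference was −3.26 ± 0.44 for heat-selected (edgeR adjusted p = 1.9e-06) and −2.72 ± 0.40 for control-selected larvae (edgeR adjusted p = 2.0e-05). Ancestor replicates 5 and 6, in batch A, had 1.11 and 1.34 CPM at 30 °C, below every library of the selected populations named above. With replicates 5 and 6 kept the differences were −2.77 (edgeR adjusted p = 0.0058) and −2.24 (edgeR adjusted p = 0.033). Ancestor replicates 1 and 2, also in batch A, had 1.13 and 0.399 CPM at 30 °C. In unheated ancestor larvae at 30 °C the high level was thus that of replicates 3 and 4 only.

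CRE09194, the member with the largest shared parental effect, was lower than in the ancestor by a log2 difference of −2.21 ± 0.32 in heat-selected larvae (edgeR adjusted p = 5.5e-06) and of −1.25 ± 0.31 in control-selected larvae (edgeR adjusted p = 0.013). At 20 °C heat-selected larvae had 34.9, 20.1, 15.5 and 21.9 CPM and control-selected larvae 28.6, 43.7, 55.4 and 33.2 CPM, against 61.7, 119, 47.8 and 154 CPM in the ancestor. Heat-selected and ancestor larvae did not overlap, and control-selected and ancestor larvae did. The control-selected call ended without ancestor replicate 3 at 30 °C (−1.06, edgeR adjusted p = 0.14), with ancestor replicates 5 and 6 kept (−1.02, edgeR adjusted p = 0.087) and with pairs summed (−1.24, edgeR adjusted p = 0.075). With heated parents the same gene had 214 and 83.9 CPM in heat-selected and 136 and 60.5 CPM in control-selected larvae at 20 °C, which reaches into the range of unheated ancestor larvae.

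Increases relative to the ancestor were largest in CRE01691 and CRE29896 for heat-selected and in CRE21032 and CRE02474 for control-selected larvae. CRE29896 rose by 2.14 ± 0.32 in heat-selected larvae (edgeR adjusted p = 7.9e-06), with 17.4, 17.4, 8.35 and 10.2 CPM at 30 °C, against 2.02 and 2.82 CPM in the ancestor. CRE01691 (linkage group 2) had 42 counts in 8 heat-selected libraries, against 4 counts in 6 ancestor libraries, a ratio of 12 (95% exact interval for counting error only, 4.34 to 45.9). It is listed at 0 in 3 of the 4 ancestor libraries with heated parents and had 0 to 0.506 CPM in the 12 with unheated parents. CRE21032 was higher in control-selected than in ancestor larvae by 1.02 ± 0.15 (edgeR adjusted p = 2.4e-05), and CRE02474 by 0.95 ± 0.20 (edgeR adjusted p = 0.003). Both lost these calls with pairs summed (1.04 and 0.97, edgeR adjusted p = 0.094 and 0.058), and CRE02474 also without ancestor replicate 4 at 30 °C (0.88, edgeR adjusted p = 0.064).

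Between the selected populations CRE29896 (1.68 ± 0.28, edgeR adjusted p = 7.3e-05) and CRE08703 (1.59 ± 0.26, edgeR adjusted p = 6.7e-05) were higher in heat-selected larvae. CRE22864 (−1.65 ± 0.30, edgeR adjusted p = 0.00033) and CRE21032 (−1.17 ± 0.13, edgeR adjusted p = 5.0e-08) were lower. These are averages over larval temperature. CRE21032 was lower at 20 °C only, since at 30 °C its means were 56.6 CPM in heat-selected and 55.5 CPM in control-selected larvae. In replicates 1 and 2 CRE29896 had the opposite order, with means of 5.31 CPM at 30 °C and 24.8 CPM at 20 °C in heat-selected larvae, against 20.1 and 43.3 CPM in control-selected larvae. CRE08703 had 32.7, 25.1, 34.7 and 41.7 CPM in heat-selected larvae at 20 °C, against 4.97, 2.88, 6.24 and 6.59 CPM in control-selected larvae. At 20 °C its order too was the other way round in replicates 1 and 2, with 4.92 and 7.96 CPM in heat-selected and 13 and 9.17 CPM in control-selected larvae. At 30 °C in replicates 3 to 6 CRE08703 overlapped, at 2.42, 2.17, 4.51 and 4.16 CPM in heat-selected and 2.67, 1.80, 2.01 and 3.61 CPM in control-selected larvae. CRE22864 (linkage group 5) had 4.41, 6.52, 3.11 and 1.69 CPM in heat-selected larvae at 20 °C, against 22.7, 23.0, 19.5 and 26.9 CPM in control-selected larvae. Replicates 1 and 2 kept that order at 20 °C, with 4.68 and 10.5 CPM in heat-selected and 31.5 and 16.2 CPM in control-selected larvae. At 30 °C in replicates 3 to 6 CRE22864 overlapped, at 2.02, 0, 4.74 and 3.54 CPM in heat-selected and 2.97, 5.91, 4.77 and 5.05 CPM in control-selected larvae.

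Differences in the larval response between populations were tested after the values of the members had been seen. By edgeR 6 of 61 members differed between heat-selected and ancestor larvae (1.29% of all tested genes), and 6 when heat-selected were set against control-selected larvae (0.862%). Between control-selected and ancestor larvae edgeR called 0 members, with 5 at an unadjusted p under 0.05 (0.609% of all tested genes called). CRE21032, CRE10586 and CRE31515 were called in both comparisons with heat-selected larvae, which share the heat-selected libraries. In replicates 1 and 2, which these contrasts did not use, CRE31515 had the opposite order. Heat-selected larvae with unheated parents had 6.36 and 3.65 CPM at 30 °C there, against 13.5 and 15.9 CPM at 20 °C. Control-selected larvae had 10.3 and 15.8 CPM at 30 °C, against 5.52 and 13.4 CPM at 20 °C.

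The members were not set apart by abundance. Their mean log2(CPM + 1) over all libraries had a median of 3.46, beside 3.49 over all tested genes, and ran from 0.54 to 11.73. The most abundant member was CRE27021 (scaffold 33), with 2899 and 2010 CPM in heat-selected larvae at 30 °C with heated parents, against 1024 and 823 CPM with unheated parents in replicates 1 and 2. Replicates 3 to 6 of that unheated group had 682, 632, 2666 and 2437 CPM, so that the first heated library was above all 6 unheated ones and the second above 4 of the 6. Its larval decrease was −0.91 ± 0.30 in heat-selected (edgeR adjusted p = 0.031), −1.23 ± 0.30 in control-selected (adjusted p = 0.0025) and −1.69 ± 0.40 in ancestor larvae (adjusted p = 0.0019).

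Positions were read from the names of the gene models, which hold a linkage group or scaffold. Of the 62 members 33 were on 7 numbered linkage groups, with at most 7 on any of them, and 29 on scaffolds; 6358 of the 13460 tested genes were on numbered linkage groups. By old locus tag 45 members matched a gene of the RefSeq annotation of strain PX506 (10457 of 13460 tested genes did), which was used for gene order alone. Only 4 small groups of members lay near each other, and in each of them all members were higher with heated parents, as were 55 of the 62 members.

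CRE29896 and CRE29897 on linkage group 4 are direct neighbours in PX506. CRE29897 had 71.5 and 66.8 CPM in heat-selected larvae at 30 °C with heated parents, against 17.0 and 10.3 CPM with unheated parents in replicates 1 and 2 and 22.8 to 29.6 CPM in replicates 3 to 6. CRE29896 had 17.8 and 44.2 CPM in the same heated libraries, against 7.27 and 3.35 CPM in replicates 1 and 2 and 8.35 to 17.4 CPM in replicates 3 to 6. Their log2 levels had a Pearson correlation of 0.79 over the 48 libraries, which share population, temperature and batch. HTSeq sets reads on overlapping models aside, and the files do not say whether counting used the strand, so reads of adjacent models cannot be fully told apart.

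CRE08768, CRE08770 and CRE09194 lie on scaffold 89, and in PX506 CRE08768 and CRE08770 are 8 genes apart, with a correlation of 0.71 over the 48 libraries. CRE08768 had 453 and 172 CPM in heat-selected larvae at 30 °C with heated parents, against 82.7 and 58.1 CPM with unheated parents in replicates 1 and 2 and 138, 136, 211 and 167 CPM in replicates 3 to 6, of which 1 was above the second heated library. In the ancestor it had 54.1 and 79.4 CPM at 30 °C with heated parents, against 112 and 100.5 CPM with unheated parents in replicates 1 and 2, which is the opposite order. Like CRE09194 it was lower in heat-selected than in ancestor larvae in replicates 3 to 6 (−1.49 ± 0.21, edgeR adjusted p = 3.7e-06), whereas CRE08770 was not called in that comparison (0.15 ± 0.14, edgeR adjusted p = 0.7). CRE_PX356_1851, CRE_PX356_1852 and CRE23353 share a stretch of linkage group 8, with correlations of 0.01 to 0.45 over the 48 libraries. CRE07335 and CRE07519 on linkage group 1 are 21 genes apart in PX506, with a correlation of 0.32.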

How the data were processed

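The authors deposited a table of read counts per gene model for each library. GSNAP and HTSeq made these counts, per the submitters' processing notes; neither build nor strandedness is given in the sources used here. The 5 HTSeq categories at the end of each file (31.3 to 72.8% of reads were in genes) were left out. Depth was 1986767 to 12717722 counts in genes per library.

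The rule was applied to log2(CPM + 1) with TMM scaling over all 24723 gene models. Tests used edgeR 4.0.16 (R 4.3.3) on the 48 libraries in 19 cells (population, parental and larval temperature, and replicates 1-2 or 3-6; for ancestor larvae at 30 °C with unheated parents 1-2, 3-4 or 5-6), TMM scaling and filterByExpr with a minimum count of 10. Contrasts used replicates 3-6, in the ancestor at 30 °C replicates 3 and 4. Adjusted p-values are Benjamini-Hochberg over 13460 genes. The script was tested on simulated data. With a log2 change of 1, the larval contrast of heat-selected larvae called 74 of 194 changed genes (38.1%). Of its 79 calls 5 were false (6.33%). A gene that is not called may therefore still have changed. Alternatives used DESeq2 1.42.0 and limma 3.58.1, other scalings and filters, and left-out libraries.

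The members and lists were chosen with earlier results of these data known. Named members are the 2 in each direction with the largest smaller-of-both parental effect (mean log2 CPM of at least 1), genes next to the thresholds, the 2 called members with the largest change in each direction of each contrast and the 3 with the highest mean CPM; others are said to be chosen after their values were seen or are neighbours of these. Planned gene lists, stage markers and promoter motifs were not used, since the sources used here give the gene models locus tags, but neither symbols nor sequences.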

Additional observations from a re-analysis of the deposited data

Results flagged for a closer look

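In 108 groups of 6 libraries (18 named members, 6 groups with unheated parents each), single libraries stood apart from the other 5 by Dixon's criterion in 11. Chance gives about 1 in 20 only where the 6 libraries are alike. These groups mix labelled batches, and some of the values are a few counts, so nothing is read from the number. For CRE09194 they were replicate 3 of ancestor larvae at 30 °C (231 CPM, next 134) and replicate 3 of heat-selected larvae at 20 °C (34.9 CPM, next 21.9). CRE16387 had 0.749 CPM in replicate 5 of control-selected larvae at 20 °C (next 0.24) and 0.501 CPM in replicate 4 of heat-selected larvae at 20 °C (others at 0). CRE21032 was lowest in replicate 1 of control-selected larvae at 20 °C (390 CPM, next 484).

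In control-selected larvae at 30 °C, replicate 2 was highest for CRE02474 (56.1 CPM, next 25.8) and for CRE01691 (6.34 CPM, next 2.11), and replicate 1 for CRE08703 (7.11 CPM, next 3.61). Heat-selected larvae at 20 °C had the highest CRE12079 in replicate 4 (3.01 CPM, next 0.421) and the highest CRE27021 in replicate 2 (5300 CPM, next 3150). Replicate 3 of ancestor larvae at 30 °C had the highest CRE22864 (7.08 CPM, next 3.13).

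The larval temperature response in replicates 3 to 6 differed between heat-selected and ancestor larvae in 6 members by edgeR. The log2 difference was 2.73 for CRE21032, 1.59 for CRE31515 and 1.37 for CRE09281, and −1.55 for CRE22494, −1.8 for CRE09130 (adjusted p just under 0.05) and −3.46 for CRE10586. Between heat-selected and control-selected larvae it was 2.35 for CRE21032, 1.84 for CRE31515, 1.55 for CRE15916 and 1.42 for CRE08770, and −2.29 for CRE08703 and −3.49 for CRE10586. Of these members CRE15916 was lower with heated parents and the others were higher. In replicates 1 and 2 the decrease of CRE21032 in heat-selected larvae was larger, and that of CRE10586 smaller, than in replicates 3 to 6. By CPM in replicates 1 and 2, with no test, the order against ancestor larvae was opposite for CRE31515, CRE09281 and CRE09130. Against control-selected larvae it was opposite for CRE21032, CRE31515 and CRE08703. The responses of CRE22494 and CRE08770 hardly differed there between the populations compared. Population and batch cannot be told apart in these differences, and the ancestor's values at 30 °C rest on replicates 3 and 4.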

How the results depend on the processing

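The set itself depends on its thresholds: a pseudocount of 0.5 CPM gives 116 genes, a threshold of 1 gives 26, an ancestor limit of 0.3 gives 38, and replicates 3 to 6 as unheated libraries give 189, against 62. Leaving out each of its 24 libraries in turn gives 51 to 92, of which at least 41 are among the 62.

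Summing consecutive libraries in pairs, with lone values assumed to vary like those of other groups, leaves 17 larval calls in heat-selected, 23 in control-selected and 20 in ancestor larvae (27, 38 and 33 unsummed), 1 between control-selected and ancestor larvae (10 unsummed) and 6 (11 unsummed) for heat-selected against control-selected larvae. Keeping ancestor replicates 5 and 6 at 30 °C leaves 3 between control-selected and ancestor larvae. Without the low-count filter heat-selected and control-selected larvae differ in 18 members. The causes were not tested. Leaving out single libraries gives 25 to 28 larval calls in heat-selected, 29 to 40 in control-selected and 20 to 34 in ancestor larvae, the last with 20 without replicate 4 at 30 °C; the population differences give 15 to 22 (heat-selected against ancestor), 6 to 11 (control-selected against ancestor; 6 without ancestor replicate 3 at 30 °C) and 10 to 16 (heat-selected against control-selected).

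A replicate block in the fit of replicates 3 to 6 gives 31, 42 and 35 larval calls in heat-selected, control-selected and ancestor larvae and 22, 11 and 16 population differences in the order above; same-numbered libraries correlated by −0.09 to 0.40, so the numbers were not taken as pairs. Scaling by total counts moves the median larval change of all genes to −0.12 in heat-selected, −0.07 in control-selected and −0.23 in ancestor larvae, with 8 higher and 23 lower, 13 and 25, and 10 and 23 called members. No share of all tested genes is given for the replicate block, total-count scaling, the fit without the low-count filter or most left-out libraries. The member counts under these alternatives are therefore not read against all genes. Of the values of single members under these alternatives, 1054 counted as unchanged, 13 lost their call and none turned round. Unchanged tested values kept direction and call, and unchanged parental effects, which have no test, moved by less than the standard deviation within groups. Another 6 parental effects moved by more. Depth limits the members near 0 CPM, such as CRE16387 and CRE01691.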
